A study of Mus musculus with 6 samples.

Results

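Imprinted genes are expressed from 1 parental allele, and 44 of them were followed here in small-intestinal organoids from young and aged mice. The members were ATAC-seq peaks that the deposited annotation names for one of these genes and that lie within 50 kb of its transcription start site (TSS). These were 159 of 156733 consensus peaks, at 36 of the 44 genes and 17 of their 18 loci. No peak was named for Igf2, Meg3, Rian, Mirg, Plagl1, Calcr, Ndn or Usp29. A filter on low counts kept 139 of the 159 peaks for testing, and the 20 left out are listed by their range below.

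Organoids are self-renewing epithelial cultures with both stem and differentiated cells, and ATAC-seq reads open chromatin through the insertion of adapters by the transposase Tn5. The young group (3 libraries) came from C57BL/6JRj mice of 2 to 3 months and the aged group (3 libraries) from mice of the same strain at 20 to 22 months. All cultures were untreated, kept for 3 to 5 weeks and taken at passage 4, 3 or 2 (replicates 1, 2 and 3). The labels leave unsaid whether each library stems from its own animal, so p-values measure the spread between these libraries, which may be technical. Because the strain is inbred, the values are sums over both parental alleles, and DNA methylation was not measured. In bulk libraries, fewer cells with an open site and a lower opening per cell cannot be told apart.

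Most imprinted loci are governed by an imprinting control region, a CpG-rich stretch whose methylation is set in the egg or sperm and kept in body cells for life. Many of these regions, the germline differentially methylated regions (DMRs), are methylated on the maternal copy and hold the start site of a transcript made from the paternal copy. The zinc-finger protein ZFP57 keeps such methylation through early development by binding a methylated hexamer, TGCCGC. In the adult intestine, imprinted genes such as H19, Igf2 and Cdkn1c are known as growth and cell-cycle regulators.

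RefSeq promoter windows (GRCm38.p6, 250 bases before to 50 after the TSS) were found for 36 of the 44 genes, and H19, Cdkn1c, Kcnq1, Klf14, Peg10, Sgce, Nespas and Impact are named only. The first 3 sequences are windows that overlap a peak with lower accessibility in aged organoids: Peg3 at chr7:6730370-6730669, Zim1 at chr7:6696383-6696682 and Grb10 at chr11:12037371-12037670, all on the minus strand. Mest at chr6:30737800-30738099 and Airn at chr17:12741061-12741360, both on the plus strand, are shown beside them because their peaks passed no test. Capitals mark TGCCGC or its reverse complement GCGGCA, and sequences run 5′ to 3′.
Peg3: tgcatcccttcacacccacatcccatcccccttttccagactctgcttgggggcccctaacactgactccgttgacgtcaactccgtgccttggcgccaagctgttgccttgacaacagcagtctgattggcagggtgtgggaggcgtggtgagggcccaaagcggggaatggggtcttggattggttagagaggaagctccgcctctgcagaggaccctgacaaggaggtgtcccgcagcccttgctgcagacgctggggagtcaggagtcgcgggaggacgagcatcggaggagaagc
Zim1: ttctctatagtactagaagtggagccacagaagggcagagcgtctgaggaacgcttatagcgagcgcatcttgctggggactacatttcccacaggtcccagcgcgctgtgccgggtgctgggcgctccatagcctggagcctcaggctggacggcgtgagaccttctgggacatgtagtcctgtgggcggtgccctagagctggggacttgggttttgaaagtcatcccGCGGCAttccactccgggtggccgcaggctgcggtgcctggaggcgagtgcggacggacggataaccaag
Grb10: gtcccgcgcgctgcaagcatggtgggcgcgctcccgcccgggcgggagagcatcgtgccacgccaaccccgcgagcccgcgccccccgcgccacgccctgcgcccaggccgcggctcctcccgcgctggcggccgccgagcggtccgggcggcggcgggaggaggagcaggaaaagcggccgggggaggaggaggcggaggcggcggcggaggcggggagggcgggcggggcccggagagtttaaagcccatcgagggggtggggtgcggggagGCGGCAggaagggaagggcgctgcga
Mest: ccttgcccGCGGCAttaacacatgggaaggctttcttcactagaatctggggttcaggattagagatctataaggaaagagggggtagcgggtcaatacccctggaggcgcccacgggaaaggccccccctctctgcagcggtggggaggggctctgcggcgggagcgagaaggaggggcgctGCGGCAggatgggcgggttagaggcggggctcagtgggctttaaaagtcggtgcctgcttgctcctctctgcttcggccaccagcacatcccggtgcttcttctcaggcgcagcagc
Airn: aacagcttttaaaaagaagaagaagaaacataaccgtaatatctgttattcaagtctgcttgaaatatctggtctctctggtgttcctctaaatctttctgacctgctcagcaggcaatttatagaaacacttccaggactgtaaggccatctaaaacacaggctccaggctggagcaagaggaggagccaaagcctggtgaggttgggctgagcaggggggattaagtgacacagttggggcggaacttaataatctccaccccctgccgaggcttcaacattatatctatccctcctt

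The hexamer stood once in the Zim1 window (first base at position 231, counted from 1 at the 5′ end) and once in the Grb10 window (position 275), in both cases inside the peak. In the Mest window it stood at positions 9 and 184, 1 of them inside the peak, and the Peg3 and Airn windows held none. Across all 32851 RefSeq windows 11.6% held it, and across the windows of imprinted genes 13 of 53 (24.5%). Of 8 imprinted genes with both the hexamer and a peak in the same window, 2 had a called peak. Of 18 genes with a peak and no hexamer in any window, Peg3 and Usp29 had a called peak, the same one for both. The windows shown held 13 (Peg3), 20 (Zim1), 45 (Grb10), 17 (Mest) and 3 (Airn) CpG dinucleotides, against a median of 15 over imprinted genes and 7 over all windows. The hexamer was thus present in windows with and without a called peak.

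Accessibility fell at the start regions of Peg3, Zim1, Grb10 and Nespas and at a peak by Peg10. Peg3 and Zim1 are neighbouring zinc-finger genes, Grb10 encodes an adaptor that restrains insulin and IGF1 receptor signalling, Nespas is an antisense transcript of the Gnas locus, and Peg10 is a retrotransposon-derived gene required in the placenta. By edgeR's quasi-likelihood test, 7 of the 139 tested peaks (5.04%) passed an adjusted p of 0.05, with the Benjamini-Hochberg adjustment over all 132055 tested peaks. All 7 were lower in aged organoids and none was higher. Over all tested peaks 1.13% were called in either direction, 0.51% lower and 0.619% higher. With the replicate number as a block the count was 12 (10 lower, 2 higher), against 2.67% of all peaks (1.21% lower, 1.46% higher). The 7 peaks belong to 5 genes and 4 loci.

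Accessibility is given as CPM, counts scaled by the size of the library, for replicates 1, 2 and 3 in that order. Peg3, expressed from the paternal allele, held the peak with the smallest p. The peak at chr7:6729308-6729880, 825 bp inside the gene, had 6.46, 7.45 and 6.54 CPM in young and 1.41, 2.63 and 1.63 CPM in aged libraries. Every aged library lay below every young one. The means were 6.82 ± 0.55 and 1.89 ± 0.65 CPM (SD, n = 3), a log2 fold change of -1.87 (SE 0.20; edgeR adjusted p = 2.1e-07). It was called in all 13 alternatives in which it was tested, with adjusted p from 3.6e-15 to 6.5e-05.

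A second Peg3 peak, chr7:6730108-6730546, covers 177 bases of the Peg3 promoter window printed above and also the start of Usp29, a ubiquitin protease gene transcribed the other way from the same region. It had 0.84, 2.84 and 2.43 CPM in young and 0.91, 1.25 and 1.09 CPM in aged libraries. Young replicate 1 lay below all aged libraries, so the groups overlapped, and that library held only 6 counts there. The log2 fold change was -1.08 (SE 0.28; edgeR adjusted p = 0.046), the value nearest to the threshold among the called peaks. It was called in 5 of 12 alternatives (adjusted p 0.0062 to 0.39), with log2 fold changes from -1.29 to -0.81. The other Peg3 peak, at chr7:6728675-6728946, had too few counts to be tested, with means of 0.842 CPM in young and 0.320 in aged libraries.

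Zim1, the maternally expressed neighbour of Peg3, fell at its start. The peak chr7:6696410-6696629 lies wholly in the Zim1 promoter window printed above, although the annotation sets it 7.71 kb from the TSS it used. It had 1.26, 1.59 and 1.0 CPM in young and 0.318, 0.508 and 0.311 CPM in aged libraries, without overlap. The log2 fold change was -1.79 (SE 0.37; edgeR adjusted p = 0.0054). Without aged replicate 3 the adjusted p was 0.052 and without young replicate 2 it was 0.11. With 7 to 42 counts per library, this is one of the thinnest of the called peaks.

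Nespas, transcribed from the paternal allele, fell the most. Its promoter peak chr2:174295372-174295740, 120 bp from the TSS, had 1.12, 0.756 and 2.16 CPM in young and 0.318, 0.185 and 0.311 CPM in aged libraries. All aged libraries were lower, and young replicate 3 stood above the other young ones. The means were 1.35 ± 0.73 and 0.271 ± 0.075 CPM (SD, n = 3), with a log2 fold change of -2.27 (SE 0.43; edgeR adjusted p = 0.0022). Without young replicate 3 the log2 fold change was -1.64 and the adjusted p 0.20. The counts behind these values were 8, 20 and 41 (young) against 7, 4 and 8 (aged). Of the same locus, the Gnas peak near Nespas at chr2:174297239-174297562 passed no test (0.855 ± 0.123 against 0.631 ± 0.154 CPM, SD, n = 3; log2 -0.45, adjusted p = 0.76).

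Grb10 fell at both of its start regions. The peak chr11:12025653-12026594, in an exon 200 bp from a downstream start, had 7.16, 7.26 and 4.69 CPM in young and 3.41, 3.47 and 3.46 CPM in aged libraries. The aged libraries were nearly equal and all lower than the lowest young library. The log2 fold change was -0.87 (SE 0.18; edgeR adjusted p = 0.0060), and the call was lost without young replicate 2 (adjusted p = 0.087) and after thinning to the shallowest library (0.11).

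The upstream Grb10 peak, chr11:12037138-12037836, covers the whole promoter window printed above. It had 2.11, 2.99 and 2.53 CPM in young and 1.23, 1.48 and 0.854 CPM in aged libraries, again without overlap. The log2 fold change was -1.17 (SE 0.25; edgeR adjusted p = 0.0085). The call was lost in 4 of 13 alternatives: DESeq2 (adjusted p = 0.064), thinning (0.56), without aged replicate 3 (0.13) and without young replicate 2 (0.080). Thinning also brought its log2 fold change to -0.76. Ddc, the dopa decarboxylase gene next to Grb10, had a promoter peak at 26.4 ± 2.0 CPM in young and 25.5 ± 1.0 in aged libraries (SD, n = 3; log2 -0.04, adjusted p = 0.95).

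Peg10 fell at a peak that the annotation places 6.05 kb upstream, but that lies 1.97 kb inside the gene by its RefSeq start. The peak chr6:4749077-4749469 had 8.28, 9.23 and 7.28 CPM in young and 5.86, 4.20 and 4.11 CPM in aged libraries, without overlap. The log2 fold change was -0.81 (SE 0.17; edgeR adjusted p = 0.0048), and it was 0.050 without young replicate 2 and 0.085 without aged replicate 3. The neighbouring peak chr6:4747978-4748295, by the start that Peg10 shares with Sgce, a sarcoglycan gene, had 1.68, 1.17 and 1.48 CPM in young and 0.318, 0.786 and 0.699 CPM in aged libraries. Its groups did not overlap either, yet it stood just outside the threshold (log2 -1.18, SE 0.34; adjusted p = 0.088, and 0.034 with the replicate block). The only peak named for Sgce, in an intron, was too low to be tested.

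**Figure D1:**
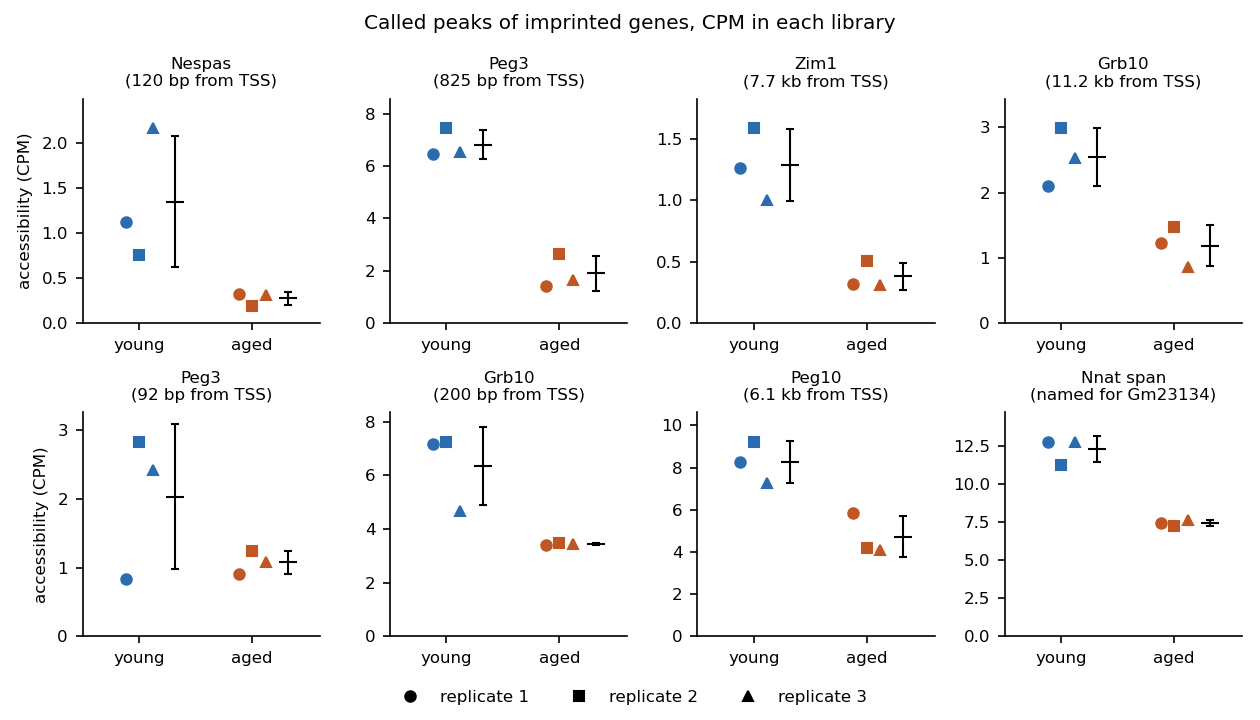
Accessibility in CPM (vertical axes, from 0) in each young (blue) and aged (orange) library at the 7 called peaks of imprinted genes and at the called peak in the Nnat span; marker shapes give the replicate, and the bars show the mean and SD of 3 libraries. At 7 of these 8 peaks every aged library lies below every young library, and at the Peg3 peak 92 bp from the TSS young replicate 1 lies below the aged ones.

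Peaks were also taken by position instead of by the gene name they carry, a choice made after values had been seen. The deposited annotation gives 159 peaks in the RefSeq spans of imprinted genes (1 kb added on each side) to another nearest gene, and 1 of the 122 tested was called (0.82%), a share near the 1.13% of all tested peaks. That peak was lower in aged organoids and is described here for its place. It lies at chr2:157561197-157561657, 1.35 kb from the start of Nnat, which encodes the membrane protein neuronatin and sits inside Blcap, and is named for the small RNA gene Gm23134. It had 12.8, 11.3 and 12.8 CPM in young and 7.46, 7.21 and 7.65 CPM in aged libraries, without overlap. The log2 fold change was -0.71 (SE 0.13; edgeR adjusted p = 0.0020), called in 12 of 13 alternatives, the exception being thinning (0.12). The Nnat peak that the rule had taken, an intronic one, was at 0.674 ± 0.483 and 0.515 ± 0.236 CPM (SD, n = 3; log2 -0.54, adjusted p = 0.78).

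The same search found the start of Plagl1, a paternally expressed zinc-finger transcription factor gene whose peaks are named for Gm27741. Its promoter peak had 19.6, 20.5 and 16.0 CPM in young and 14.3, 18.9 and 13.3 CPM in aged libraries, so the groups overlapped (log2 -0.27, SE 0.13; edgeR adjusted p = 0.48). An intronic Plagl1 peak at chr10:13100311-13100949 had 13.6, 11.8 and 13.6 CPM against 9.41, 9.43 and 9.43 CPM. Its groups did not overlap and its adjusted p was 0.086, or 0.011 with the replicate block (log2 -0.45). The peak by the Snrpn start, named for Snurf, was at 5.96 ± 1.22 and 6.43 ± 1.24 CPM (SD, n = 3; log2 0.09, adjusted p = 0.93).

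At 3 further starts found in this way every aged library lay above every young one, and none passed the correction. Over all tested peaks 7.66% showed such a separation. The peak by the start of Igf2, the growth factor gene next to H19, is named for Igf2os and lies at chr7:142658930-142659951. It had 2.95, 3.86 and 3.27 CPM in young and 4.59, 5.04 and 4.62 CPM in aged libraries (log2 0.45, SE 0.18; edgeR adjusted p = 0.33). The peak in the main promoter window of Igf2r, named for Gm23833, lies at chr17:12768804-12770023 and had 10.4, 12.3 and 9.12 against 12.9, 13.5 and 12.5 CPM (log2 0.28, SE 0.13; adjusted p = 0.48). The peak in the main promoter window of Commd1, named for Gm28048, was at 31.4 ± 0.6 and 34.5 ± 0.7 CPM (SD, n = 3; log2 0.14, adjusted p = 0.68).

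Start sites in a germline DMR were set beside the other start sites of imprinted genes. The assignment of genes to germline DMRs is textbook knowledge, was drawn up after values had been seen, and carries no test. For Grb10, Inpp5f and Impact only the start inside the gene counts as one in a germline DMR. All starts of Gnas were set among the other starts, although some of them may lie in a germline DMR, so the split is not firm. Among them is the strong peak at chr2:174327144-174328017, named for Gm20721. It was at 18.1 ± 1.4 CPM in young and 18.0 ± 0.6 CPM in aged libraries (SD, n = 3; log2 0.00, edgeR adjusted p = 0.997). Within 2 kb of a start in a germline DMR, 22 peaks at 14 genes were tested. Of these, 6 were called, all lower in aged, 17 had a log2 fold change below 0, and the median was -0.26. One of the 6 is the Nnat peak, which was picked for its value, and among the 19 peaks that the naming rule takes 5 were called and 15 were below 0. Within 2 kb of the other starts, 44 peaks were tested, 2 were called (Zim1 and the upstream Grb10 peak), 20 were below 0, and the median was 0.02. For comparison, 0.949% of all tested peaks within 1 kb of a TSS were called lower and 42.6% were below 0. That limit is narrower than the 2 kb used for the starts here. Of promoter-TSS peaks in the same range of levels as the called members, 1.97% were called lower.

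**Figure D2:**
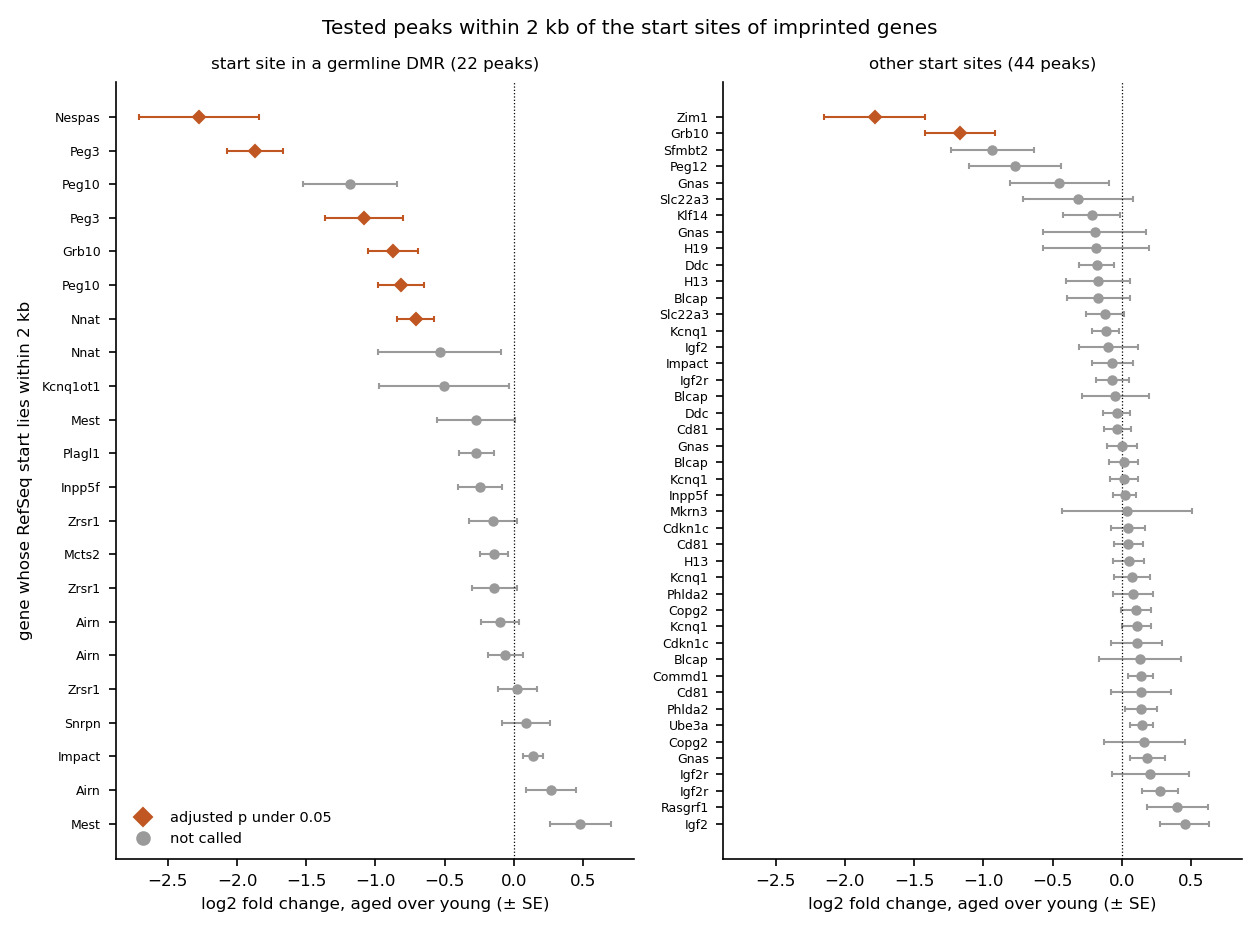
Log2 fold change (aged over young, edgeR, horizontal axis) with its SE for each tested peak within 2 kb of a start site, by RefSeq or by the deposited annotation. The 22 peaks at starts in a germline DMR are on the left and the 44 at other starts, those of Gnas included, on the right; orange diamonds are called peaks. The called peaks on the left are those of Nespas, Peg3, Grb10 (downstream start), Peg10 and Nnat, and those on the right are Zim1 and the upstream Grb10 peak.

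Several maternally methylated control regions passed no test. Airn, the long noncoding RNA that silences Igf2r, had 12.9, 12.7 and 14.0 CPM in young and 14.4, 10.7 and 12.97 CPM in aged libraries at its start (log2 -0.06, SE 0.13; edgeR adjusted p = 0.93). Mcts2, a retrogene within H13, had 29.6, 27.0 and 24.6 CPM against 25.5, 22.4 and 24.9 CPM (log2 -0.14, adjusted p = 0.71). In both the groups overlapped. Mest, a paternally expressed gene of mesoderm growth, had 1.82, 2.80 and 1.74 CPM against 2.82, 3.60 and 2.91 CPM at its start. Here the aged libraries were all higher, without overlap, but the difference failed the correction (log2 0.48, SE 0.22; adjusted p = 0.47).

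Kcnq1ot1, the noncoding RNA of the Kcnq1 domain, had 3.65, 0.983 and 0.580 CPM in young and 0.955, 1.06 and 0.776 CPM in aged libraries at its promoter. Young replicate 1 stood far above the rest, and the log2 fold change of -0.50 (SE 0.47; edgeR adjusted p = 0.81) turned to 0.20 when it was left out. The internal start of Inpp5f, a phosphoinositide phosphatase gene, was at 7.09 ± 1.11 and 5.96 ± 0.78 CPM (SD, n = 3; log2 -0.25, adjusted p = 0.69). Zrsr1, a splicing-factor retrogene in Commd1, was at 5.76 ± 1.01 and 5.15 ± 0.74 CPM (SD, n = 3; log2 -0.15, adjusted p = 0.86). Impact, an inhibitor of the kinase GCN2, held the strongest peak of all members in its first intron, with 123, 118 and 109 CPM against 127, 135 and 122 CPM (log2 0.14, adjusted p = 0.56).

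H19 and its upstream region, the control region methylated on the paternal copy, gave small differences in 1 direction. The H19 promoter peak was at 0.729 ± 0.221 CPM in young and 0.627 ± 0.115 CPM in aged libraries (SD, n = 3; log2 -0.19, edgeR adjusted p = 0.93). The peak 2.42 kb upstream had 5.89, 4.39 and 4.11 CPM against 3.91, 3.51 and 3.42 CPM (log2 -0.35, SE 0.18; adjusted p = 0.55), and the peak 3.74 kb upstream had 1.26, 1.32 and 1.64 against 0.955, 0.924 and 1.09 CPM (log2 -0.52, SE 0.28; adjusted p = 0.58). The peak 15.8 kb upstream had the smallest p of the locus, with 15.1 ± 0.7 CPM in young and 12.7 ± 0.3 CPM in aged libraries (SD, n = 3; log2 -0.25, adjusted p = 0.47). At the last 3 of these peaks the groups did not overlap, and none passed the correction. Over all tested peaks 7.09% had every aged library below every young one. Summed over the 6 H19 peaks, young libraries had 27.8, 27.3 and 28.7 CPM and aged libraries 23.8, 23.0 and 23.6 CPM (gene-level log2 -0.26, adjusted p = 0.16).

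No peak of the other members tied to growth passed the correction in the fit without the replicate block. Cdkn1c, the cyclin-dependent kinase inhibitor p57, was at 12.2 ± 0.9 and 12.6 ± 0.5 CPM at its promoter (SD, n = 3; log2 0.04, edgeR adjusted p = 0.96). Phlda2, a brake on placental growth, was at 15.2 ± 0.7 and 16.8 ± 1.8 CPM (log2 0.14, adjusted p = 0.77). A peak 8.26 kb upstream of Phlda2 had 5.75, 7.34 and 5.75 CPM against 7.77, 9.61 and 8.31 CPM (log2 0.42, SE 0.15; adjusted p = 0.28, and 0.044 with the replicate block). Igf2r, the receptor that clears IGF2, had beside the stronger promoter peak above a peak by a start inside the gene, at 1.29 ± 0.43 and 1.64 ± 0.45 CPM (SD, n = 3; log2 0.21, adjusted p = 0.88). Rasgrf1, a Ras exchange factor, was at 2.29 ± 0.58 and 3.03 ± 0.46 CPM at its promoter (log2 0.40, adjusted p = 0.59), and its peak 3.26 kb into the gene had 18.1, 14.4 and 15.7 against 20.0, 18.3 and 20.5 CPM (log2 0.31, adjusted p = 0.25). Sfmbt2, a polycomb protein gene, had 0.982, 2.23 and 1.32 against 0.727, 1.02 and 0.854 CPM (log2 -0.94, SE 0.30; adjusted p = 0.16).

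In the Snrpn domain the promoter of Ube3a, the ubiquitin ligase gene of Angelman syndrome, was at 60.4 ± 3.7 and 66.7 ± 5.1 CPM (SD, n = 3; log2 0.14, edgeR adjusted p = 0.61). An intronic Snrpn peak at chr7:60125353-60125617 had 5.61, 4.88 and 6.80 CPM in young and 8.27, 7.99 and 7.61 CPM in aged libraries. All aged libraries were higher (log2 0.47, SE 0.16), with an adjusted p of 0.20, and 0.049 with the replicate block. Peg12, an intronless gene at the edge of this domain, had 1.54, 1.17 and 0.897 against 0.773, 0.601 and 0.621 CPM (log2 -0.77, SE 0.33; adjusted p = 0.41). Mkrn3 was at 0.463 ± 0.160 and 0.524 ± 0.329 CPM (SD, n = 3; log2 0.04, adjusted p = 0.99), and Magel2 was too low to be tested.

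Among the remaining promoter peaks the log2 fold changes were close to 0. They were 0.05 for Cd81 (a tetraspanin), 0.02 for Kcnq1 (a potassium channel), 0.11 for Copg2 (a coatomer subunit), -0.22 for Klf14, -0.05 for Blcap, 0.05 for H13 (signal peptide peptidase), 0.02 for Commd1 (a copper-handling protein) and -0.12 for Slc22a3 (an organic cation transporter). Their edgeR adjusted p-values were 0.81 to 0.98, and their mean levels over all libraries ran from 1.72 CPM at Blcap to 26.4 CPM at Kcnq1. These starts are those of the deposited annotation. The Commd1 peak listed here overlaps the RefSeq window of Zrsr1, and the peak in the main Commd1 window is given above. Peaks over RefSeq windows of Blcap and Cd81, named for Gm23134 and R74862, were at 20.5 and 25.1 CPM (log2 0.01 and -0.03, adjusted p = 0.99 and 0.96). The Dlk1 promoter was too low to be tested (0.435 ± 0.139 and 0.437 ± 0.175 CPM, SD, n = 3). Of the distal peaks with the smallest p of their locus, an Inpp5f peak at chr7:128672044-128673003 (log2 -0.35, adjusted p = 0.24) and a Slc22a3 peak at chr17:12485675-12486072 (log2 -0.38, adjusted p = 0.29) passed with the replicate block (0.019 and 0.047). A Dlk1 peak 16.2 kb upstream had 2.67, 2.84 and 2.90 against 2.09, 1.76 and 2.10 CPM (log2 -0.51, adjusted p = 0.39), a Blcap peak had a log2 fold change of 0.58 (adjusted p = 0.77) and a Commd1 peak of -0.43 (adjusted p = 0.84).

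Just beyond the limit of 50 kb, a Dlk1 peak 50.4 kb upstream at chr12:109402248-109402646 was lower in aged organoids. Dlk1 encodes a membrane protein of the Notch ligand family. The peak had 16.0, 11.6 and 14.8 CPM in young and 6.14, 10.4 and 8.97 CPM in aged libraries, without overlap (log2 -0.70, SE 0.16; edgeR adjusted p = 0.016). It was called in 9 of 13 alternatives, but in only 2 of the 6 that leave out a library (adjusted p up to 0.16). It is the 1 called of 15 tested among 19 peaks named for these genes beyond 50 kb, was picked for its value, and is not among the 7 peaks counted above.

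Over all 139 tested peaks the median log2 fold change was -0.05, against -0.01 over all tested peaks, and 78 were below and 61 above 0. At the 13 loci without a called peak, 61 of 122 peaks were below 0 and 61 above, with a median of 0.00, a count that pools loci with unlike splits. Among peaks named for the members, every tested one was below 0 at Peg3 (3), Peg10 (2), Gnas (5) and Grb10 (7), and also at H19-Igf2 (5), where none was called. Peaks in the spans of Gnas and Grb10 that are named for other genes lay on both sides of 0. Those by Gnas starts at chr2:174327144-174328017 and chr2:174328965-174331160 had log2 fold changes of 0.00 and 0.18 (edgeR adjusted p = 0.997 and 0.71). Below 0 were 1 of 7 tested peaks at Rasgrf1, 7 of 24 at Kcnq1ot1, 4 of 15 at Snrpn and 15 of 25 at Igf2r-Airn. Within 1 kb of a TSS, 21 of 34 peaks were below 0 (61.8%), against 42.6% of all tested peaks within 1 kb. At an unadjusted edgeR p under 0.05, 25 of the 139 member peaks passed, 19 lower and 6 higher. The share of all tested peaks under this limit was not counted, so no excess can be read from these numbers. In 18 peaks (12.9%) every aged library lay below every young one, against 7.09% of all tested peaks, and in 12 (8.63%) every aged library lay above, against 7.66%.

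The called peaks were neither the strongest nor the weakest of the members. Their mean levels ran from 0.809 to 6.50 CPM (median 1.86), those of the other tested members from 0.432 to 122 CPM (median 2.65). The 20 untested peaks had means of 0.137 to 0.581 CPM. Of the called peaks 5 are annotated as promoter-TSS (33 members tested), 1 as exon (12 tested) and 1 as intron (59 tested). None of 30 intergenic members was called. Over all tested peaks, 0.899% of promoter-TSS, 1.10% of exon, 0.354% of intron and 0.486% of intergenic peaks were called lower. At such a share, no call among 30 intergenic peaks says nothing particular about the members. The share called lower over all tested peaks within 1 kb of a TSS was 0.949%, and over all promoter-TSS peaks in the same range of levels as the called members 1.97%.

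**Figure D3:**
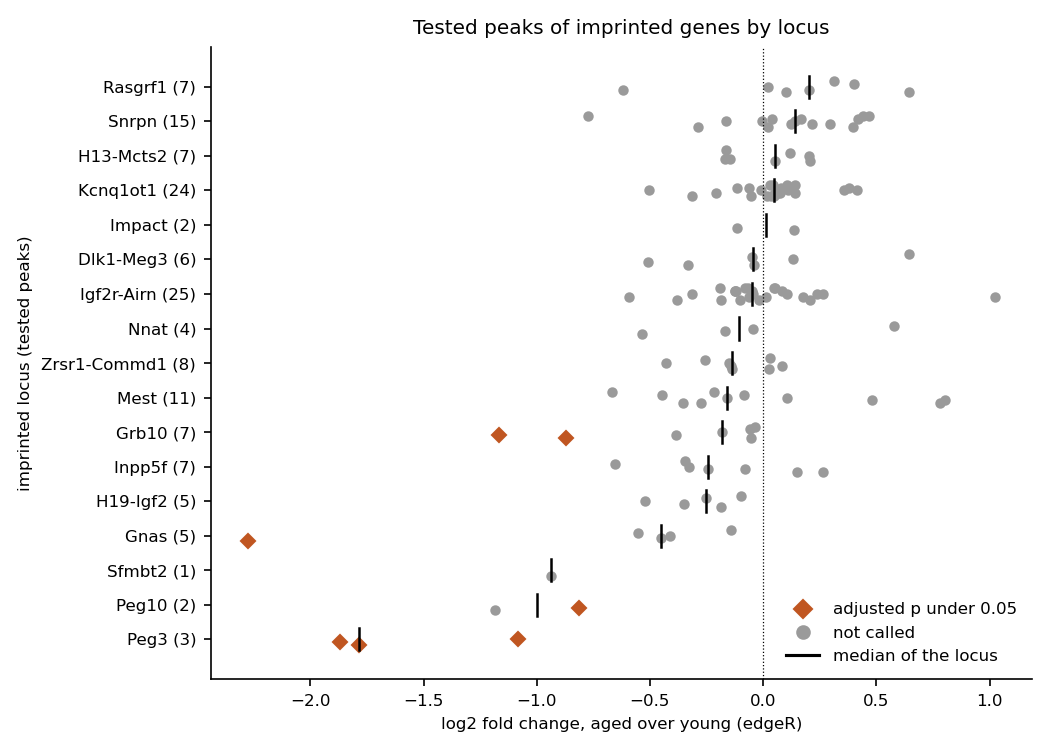
Log2 fold change (aged over young, edgeR, horizontal axis) of the 139 tested peaks by imprinted locus, with the number of tested peaks in brackets; orange diamonds are called peaks and the vertical bars are medians of the locus. All called peaks lie below 0, at the Peg3, Gnas, Peg10 and Grb10 loci, and the 5 H19-Igf2 peaks and the single Sfmbt2 peak (-0.94) are also below 0.

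Counts summed over all peaks of a gene gave the same 5 genes, largely from the same counts. Nespas and Zim1 have 1 peak each, both Grb10 peaks were called, and called peaks hold most of the Peg3 and Peg10 sums. The sums are thus no separate support for the calls. Of 35 members tested, 5 (14.3%) were called, all lower, against 1.39% of 29256 genes in either direction and 0.909% lower. The Peg3 sum went from 9.69 ± 1.80 to 3.29 ± 0.85 CPM (SD, n = 3; log2 -1.62, SE 0.18; edgeR adjusted p = 1.4e-05). The other log2 fold changes were -0.96 for Grb10 (adjusted p = 0.0014), -0.88 for Peg10 (0.0017), -2.28 for Nespas (0.0077) and -1.80 for Zim1 (0.0089). Without aged replicate 3 or young replicate 2, Zim1 lost its call (0.080 and 0.073), and without young replicate 3 Nespas did (0.13). Peg3, Grb10 and Peg10 were called in all 14 alternatives. The Snrpn sum went the other way, from 8.94 ± 1.41 to 11.9 ± 0.2 CPM (SD, n = 3), with every aged library above every young one. Its log2 fold change was 0.40 (SE 0.13; edgeR adjusted p = 0.18), and it was called in 1 of 14 alternatives (adjusted p = 0.035).

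Summed by locus, with no test, the Peg3 locus of aged organoids stood at 33.4% of the young mean (10.98 ± 1.92 against 3.67 ± 0.96 CPM, SD, n = 3) and the Peg10 locus at 56.0% (10.2 ± 1.1 against 5.70 ± 0.77 CPM). The Grb10 locus, which includes Ddc, stood at 88.0%, H19-Igf2 at 84.0% and Igf2r-Airn at 96.6%, and in these 5 loci the groups did not overlap. The Snrpn locus was the only one with every aged library above every young one, at 111%. The remaining loci, Gnas and Sfmbt2 among them, overlapped. How often sums over other genes separate in this way was not counted, so the separation of a locus has no share to be read against. Within 10 kb of the TSS alone, the log2 ratio of the Gnas locus moved from -0.28 to -0.58, that of H19-Igf2 from -0.25 to -0.42 and that of Dlk1-Meg3 from -0.06 to 0.17.

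**Figure D4:**
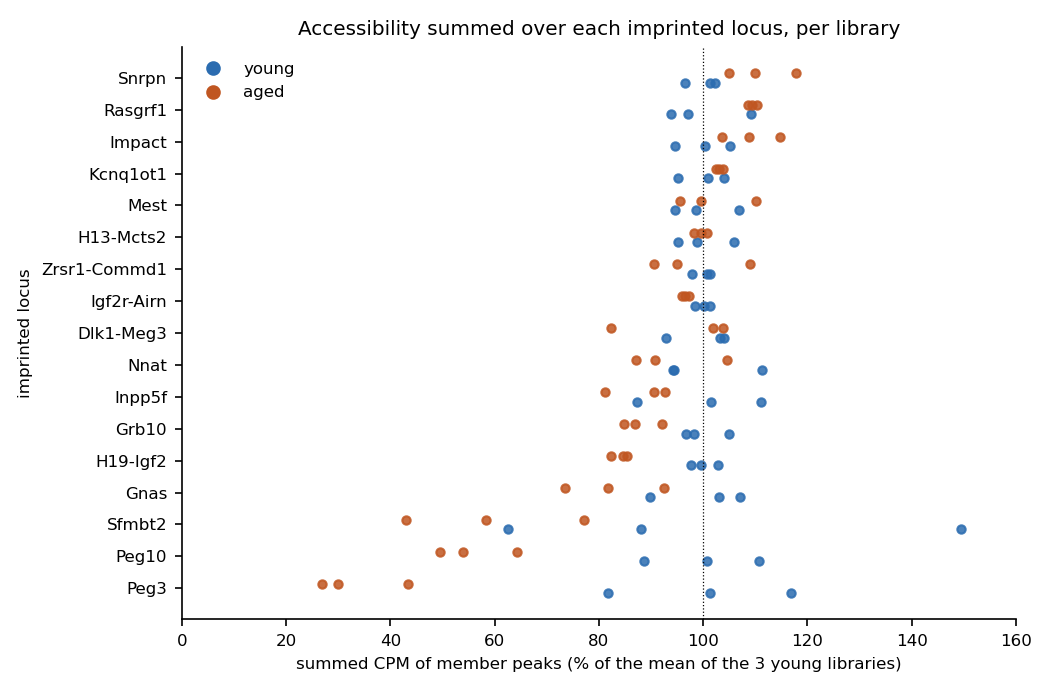
Summed CPM of the member peaks of each imprinted locus as a percentage of the mean of the 3 young libraries (horizontal axis, from 0), with 1 point per young (blue) and aged (orange) library. The aged libraries lie at 26.9 to 43.4% in the Peg3 locus and at 49.6 to 64.3% in the Peg10 locus, and most other loci lie near 100%.

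Genes outside the 44 members were looked at in 2 lists. Of 26 further imprinted genes, 24 had a peak, and edgeR called 0 of 108 tested peaks, with 16 at an unadjusted p under 0.05 and 0 by DESeq2. Of 18 genes that write, keep or erase DNA methylation at imprints (Zfp57, Trim28, Dnmt1, Uhrf1 and the Tet genes among them), 16 had a peak. There edgeR called 0 of 65 tested peaks, with 5 at an unadjusted p under 0.05 and 0 by DESeq2. With the replicate block, 3 peaks of the first list were called (at Slc22a18, Atp10a and Peg13) and 1 of the second (at Dnmt3a). Over all tested peaks 1.13% were called without the block and 2.67% with it. Counts this small in either list cannot be told from those shares. The share of all tested peaks at an unadjusted p under 0.05 was not counted.

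The 6 libraries held 7278161 (young replicate 1) to 26093521 counts in peaks, and member peaks took 0.0920 to 0.0978% of them. Leaving out young replicate 1, the shallowest, gave 7 called member peaks. Promoter peaks of epithelial markers (9 of 10 genes with a peak) summed to 314 to 360 CPM in young and 337 to 349 CPM in aged libraries. Stromal markers (5 of 8 genes) summed to 28.5 to 36.3 and 31.3 to 36.5 CPM, immune markers (1 of 5, Cd14) to 13.7 to 15.7 and 13.3 to 15.5 CPM, and those of neurons and glia (2 of 5) to 8.60 to 11.5 and 11.0 to 11.9 CPM. The 1 of 3 endothelial markers with a peak, Kdr, had 2.69 to 3.71 CPM in young and 1.86 to 2.22 CPM in aged libraries, without overlap, and its part in the lower member peaks was not tested. The immune markers Ptprc, Cd3e and Itgam, the endothelial markers Pecam1 and Cdh5, and the epithelial marker Vil1 had no promoter peak, and no marker peak was called.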

How the data were processed

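ATAC-seq was run on 3 young and 3 aged libraries. The authors deposited raw counts per consensus peak, made with featureCounts per the file headers and not normalized, and an annotation of the same peaks with class, nearest gene and distance to its TSS on GRCm38. The tools, per the submitters' processing notes, included BWA 0.7.17-r1188, MACS2 2.2.7.1 and featureCounts 2.0.1. Handling of duplicates and of the Tn5 offset: not given in the sources used here.

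Counts of all 156733 peaks were fitted in edgeR 4.0.16 (R 4.3.3; TMM factors, filterByExpr with a minimum count of 10, robust quasi-likelihood F test), which was first tested on simulated data. Benjamini-Hochberg adjustment ran over all 132055 tested peaks, or 29256 gene sums, with calls at 0.05. CPM uses TMM-scaled library sizes. The totals per library, 7278161 to 26093521 counts, limit the precision of thin peaks. The libraries were amplified over 20 PCR cycles, and without molecular identifiers some counts may be copies of the same fragment.

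Replicate numbers pair the libraries in the titles by culture code and passage. Deviations from the group means correlated weakly within pairs (r = 0.074, 0.13 and 0.14), and in every case the best match of a library was its same-numbered partner. Alternatives were RLE factors, total counts, other filters, DESeq2 1.42.0, the replicate block, thinning to the shallowest library, other distances and leaving out each library.

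Named are all called member peaks, the promoter peak with most counts within 1 kb of each TSS, the peak with the smallest p per locus, members called as gene sums and called peaks of the comparison lists. The members, lists and rules were chosen with earlier results of these data known. The Nnat, Plagl1, Snurf, Igf2os, Gm23833 and Gm28048 peaks, the distant Dlk1 peak, the H19 peaks nearest its start, the untested Peg3 and Peg10/Sgce peaks and the germline DMR grouping were chosen after their values were seen. The same holds for the Gm20721 peaks by Gnas starts and for the peaks over the RefSeq windows of Blcap and Cd81.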

Additional observations from a re-analysis of the deposited data

How the results depend on the processing

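The count of 7 called member peaks, all lower in aged, stood at 4 with a filter of at least 1 CPM in 3 libraries, at 2 after thinning to the shallowest library (Peg3 and Peg10), at 4 within 1 kb of the TSS and at 12 with the replicate block (10 lower, 2 higher), which ended none of the 7 calls and changed no call at a gene sum. Leaving out each library in turn gave 3 to 7, with 3 both without aged replicate 3 and without young replicate 2, where 1 of the 3 was the distal Inpp5f peak. DESeq2 called 5, and both other scalings called 7. The share called over all tested peaks moved too, from 1.13% to 1.33% with the 1 CPM filter and 0.747% after thinning. It was 0.734% by DESeq2, 2.67% with the replicate block, 0.607 to 1.4% without a library and 1.44% within 1 kb of a TSS. The Nespas and Zim1 peaks were not tested in every alternative, so a lower count is not only a loss of calls. The count of 5 genes called as sums became 3 after thinning and 4 or 5 when a library was left out. Of all gene sums, 1.39% were called in the main fit, 0.887% after thinning and 0.759 to 2.46% without a library. The Snrpn sum, not called in the main fit, was called in 1 alternative. The comparison lists went from 0 to 3 (other imprinted genes) and 1 (imprint maintenance) with the replicate block, and leaving out a library gave 0 to 1 in each. The 1 called peak in member spans became 3 with the replicate block and 1 to 2 without a library. None of the 14 called peaks and gene sums named above changed sign in any alternative, and 10 lost their call in at least 1. Of the 45 named peaks that were not called, 16 changed sign in some alternative and 6 were called in some. The causes were not tested. At the depth of young replicate 1, peaks under about 1 CPM rest on fewer than 10 counts, so a difference there was not detectable unless large.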
